A study of Mus musculus with 8 samples.

Results

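The genes of the spliceosome and of the SR family of splicing factors were examined in the livers of male Apoe-/- mice given isoginkgetin (ISOGK) or vehicle. Members were all genes of the deposited count table whose symbol begins with Snrp, Sf3a, Sf3b, Prpf, Srsf or U2af, or with Lsm followed by a digit, which gave 61 of 16540 genes. RNA was sequenced from 4 vehicle-treated and 4 ISOGK-treated livers, with 1 library per mouse. All mice carried the Apoe knockout, which makes mice prone to high plasma cholesterol and atherosclerosis, and all were fed a Western diet. The treated mice received ISOGK at 20 mg/kg/day for 8 weeks. The count table names the control columns for the solvent DMSO. The ages of these mice were not analysed here.

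Introns are removed from pre-mRNA by the spliceosome, which is built on each intron from small nuclear ribonucleoproteins (snRNPs). U1 marks the 5′ splice site, U2AF and U2 mark the 3′ splice site and the branch point, and the U4/U6.U5 tri-snRNP then joins and is remodelled into the catalytic machine. Each of the U1, U2, U4 and U5 snRNPs carries a ring of Sm proteins, U6 carries a ring of LSm proteins, and SR proteins bind exons and steer which splice sites are used. Isoginkgetin, a biflavonoid of Ginkgo leaves, was first described as an inhibitor of splicing that stalls the assembly of the spliceosome before the tri-snRNP joins. The counts used here give the amount of RNA per gene. They do not show whether introns were retained or exons were skipped, and for SR genes they pool productive transcripts with those that carry a poison exon and are degraded.

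After 8 weeks of ISOGK the spliceosome genes were close to their level in vehicle-treated livers. Levels are given as CPM, counts scaled to one common library size, with the TMM factors of edgeR to correct for differences in library composition. Of the 61 genes, 60 had enough counts to be tested, and 1 gene was higher in ISOGK-treated livers by edgeR's quasi-likelihood test at an adjusted p under 0.05. That gene was Srsf2, which encodes the SR protein SC35. No member was lower at this threshold (0 of 60), and 0 of 60 met the stricter rule that also asks for a log2 fold change beyond 1 in either direction. Over all 12307 tested genes, 4.11% were higher and 3.44% lower at the first threshold, and 1.63% met both criteria. An unadjusted p under 0.05 was reached by 10 members (6 with estimates above 0, 4 below), or 16.7%, against 24.2% of all tested genes. By role, that p was reached by 1 gene each of the Sm core, the U2 group, the other Prpf genes and the LSm ring, by 6 SR genes, and by 0 genes of U1, U2AF, the tri-snRNP and the other LSm genes. The Wald test of DESeq2 called Srsf2 and Sf3b6 higher and Prpf4b and Srsf6 lower, and limma-voom called Srsf2 alone. Of all tested genes, DESeq2 called 11.7% and limma-voom 7.02%.

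The estimates were narrow enough to bound most members. The edgeR log2 fold change of ISOGK over vehicle ran from -0.67 for Srsf5 to 0.55 for Srsf3, with a median of 0.09 over the members, against 0.00 over all tested genes. It was above 0 for 41 members and below 0 for 19. Some of the 41 fell below 0 when scaled by library size alone, which also lowered the median of all tested genes. The 95% interval lay within a 2-fold change in either direction for 58 of the 60 members (96.7%), compared with 84.0% of all tested genes. The remaining 2 genes were Srsf5 and Srsf3. The interval lay within 1.5-fold for 46 of the 60 members, compared with 6685 of the 12307 tested genes. In 6 members all mice of one group lay above all mice of the other, 4 higher and 2 lower, a share of 10% against 15.3% of all tested genes.

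**Figure D1:**
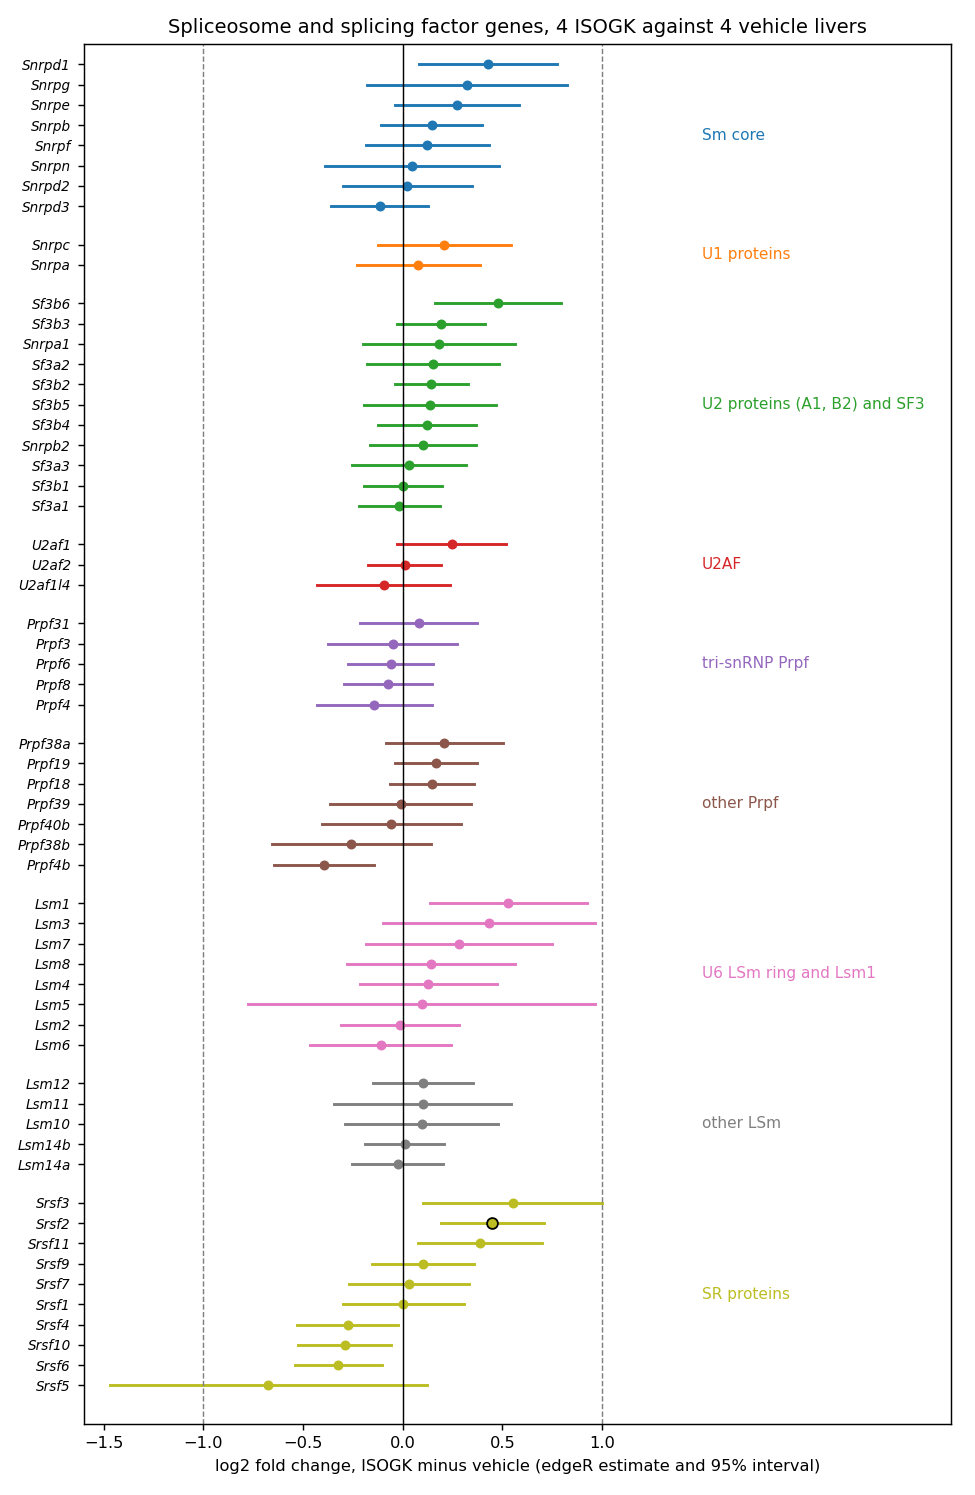
Log2 fold change of ISOGK over vehicle (x axis) for 59 of the 60 tested genes (y axis), grouped by role. Points are edgeR estimates from 4 mice per group, bars are 95% intervals, dashed lines mark 2-fold changes, and the black outline marks Srsf2, the gene with an adjusted p under 0.05. Except for Srsf5 and Srsf3, every bar shown stays between the dashed lines.

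Between 19605286 and 24461854 counts per vehicle-treated mouse and between 17457106 and 21626399 per ISOGK-treated mouse fell on genes (two-sided exact permutation test, p = 0.2). The members took 0.148% to 0.163% of the counts with vehicle and 0.135% to 0.151% with ISOGK. No p is given for this share, because the members were chosen with earlier results of these data known. Between 44.9% and 46.5% of the counts of a vehicle-treated mouse fell on its top 50 genes, compared with 46.8% to 49.98% in ISOGK-treated mice. The two-sided exact permutation test gave p = 0.0286 for the top 50 genes, the smallest p that 4 mice against 4 allow. The part of the top 50 genes in the share of the members was not tested. Apoe, the targeted gene, had 3252 to 6489 counts per library, against 128508 to 190425 for Apoa1, another apolipoprotein gene. No mouse without the knockout was sequenced for comparison, so the genotype rests on the labels. All 7 hepatocyte markers in the table were abundant, at 147563 to 158987 CPM summed with vehicle and 133683 to 171666 CPM with ISOGK, and 0 of 7 passed the test. Of 7 Kupffer cell and macrophage markers 1 was lower, with summed levels of 1047 to 1244 CPM and 837 to 1060 CPM. Of 4 cholangiocyte markers 1 was higher, with summed levels of 6.12 to 7.59 CPM and 7.70 to 14.1 CPM. In vehicle-treated mouse 4, all 10 skeletal muscle markers had their highest count, from 27 to 451, against at most 9 in any other library. The part of these cell types in the results was not tested, and in bulk liver fewer cells of a type and less RNA per cell cannot be told apart.

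The Sm core is the ring of proteins that every U1, U2, U4 and U5 snRNP carries. Its 8 genes had a median log2 fold change of 0.13, with 7 above 0, and 0 of 8 passed the test. Snrpd1 encodes the Sm protein D1 and had 5.27, 5.10, 4.32 and 4.42 CPM in vehicle-treated mice 1 to 4. In ISOGK-treated mice 1 to 4 it had 5.98, 5.33, 8.09 and 6.34 CPM, so that every ISOGK-treated mouse lay above every vehicle-treated mouse. Its log2 fold change was 0.43 (SE 0.16, edgeR's adjusted p = 0.124). Snrpe and Snrpg, which encode the Sm proteins E and G, had log2 fold changes of 0.27 and 0.32 (edgeR's adjusted p = 0.264 and 0.426), and the groups overlapped. For these small genes, 42.0% of the Snrpd1 transcript, 33.6% of that of Snrpe and 21.9% of that of Snrpg have near-identical copies in annotated transcripts of other genes. Reads could have been split between a gene and its copies.

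Of the 2 proteins of U1, which binds the 5′ splice site, 0 passed the test. Snrpc, the U1-C protein, had 7.13 to 8.31 CPM with vehicle and 7.35 to 11.7 CPM with ISOGK, a difference of 0.21 on the log2 scale (95% interval -0.13 to 0.54, edgeR's adjusted p = 0.444). Snrpa, the U1-A protein, had a log2 fold change of 0.08 (95% interval -0.23 to 0.39, edgeR's adjusted p = 0.783).

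The U2 group holds the SF3A and SF3B subunits, which clamp U2 onto the branch point, together with the U2 proteins A′ and B″. Of its 11 genes 10 were above 0, with a median log2 fold change of 0.14, and 0 passed the test. With library size alone some of the 10, such as Sf3a3 (-0.103) and Snrpb2 (-0.030), fell below 0, while Sf3b2 was at 0.014. Sf3b1 encodes the subunit that surrounds the branch point helix and that several known splicing modulators bind. It had 92.7, 83.1, 88.9 and 82.4 CPM in vehicle-treated mice 1 to 4 and 83.4, 84.0, 97.5 and 82.5 CPM in ISOGK-treated mice 1 to 4. The group means were the same, at 86.8 ± 4.93 and 86.8 ± 7.12 CPM (SD, n = 4 per group), and the 95% interval of the log2 fold change reached from -0.20 to 0.20 (edgeR). The estimate for Sf3b1 was 0.17 on the log2 scale when GC content and transcript length were corrected for. With library size alone it was -0.13, and the median of all tested genes moved to -0.13 as well.

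Sf3b6 encodes p14, the small SF3B subunit that contacts the branch point adenosine. Its level was 18.4, 15.8, 17.9 and 14.7 CPM in vehicle-treated mice and 21.2, 22.3, 18.8 and 30.5 CPM in ISOGK-treated mice. All ISOGK-treated mice were higher than all vehicle-treated mice, although ISOGK-treated mouse 3 exceeded the highest of them by little. The log2 fold change was 0.48 (SE 0.15, edgeR's adjusted p = 0.0693), and the gene was called by DESeq2 and without ISOGK-treated mouse 3, with adjusted p-values from 0.0323 to 0.173 over all alternatives. Sf3b3 and Sf3b2, which encode large SF3B subunits, had log2 fold changes of 0.19 and 0.14 (edgeR's adjusted p = 0.275 and 0.330).

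U2AF recognises the polypyrimidine tract and the AG at the 3′ splice site, through a large and a small subunit. U2af2, the large subunit, had 38.7 to 41.4 CPM with vehicle and 36.3 to 42.5 CPM with ISOGK, a difference of 0.01 on the log2 scale (95% interval -0.17 to 0.19, edgeR's adjusted p = 0.963). U2af1, the small subunit, had 21.6 to 24.6 CPM and 23.1 to 34.3 CPM, a difference of 0.25 on the log2 scale (edgeR's adjusted p = 0.254), with near-identical copies of 68.8% of its transcript. Corrected for GC content and transcript length, the log2 fold change of U2af1 was 0.08. U2af1l4, a paralog of the small subunit, had a log2 fold change of -0.10 (edgeR's adjusted p = 0.751), and shares 1086 exon bases with the annotated gene Gm49396 on the same strand. In each of these 3 genes the groups overlapped.

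The tri-snRNP is the particle whose joining isoginkgetin is described to block, and 5 of its Prpf proteins are members. These 5 genes had a median log2 fold change of -0.06, with 1 above 0 and 4 below, and 0 of 5 passed the test. Prpf8 encodes the U5 protein at the catalytic centre. It had 214, 218, 238 and 239 CPM in vehicle-treated mice 1 to 4 and 197, 237, 236 and 194 CPM in ISOGK-treated mice 1 to 4, and the groups overlapped. The log2 fold change of Prpf8 was -0.07 (95% interval -0.29 to 0.15, edgeR's adjusted p = 0.704). Prpf6, which bridges U5 and U4/U6, had a log2 fold change of -0.06 (95% interval -0.27 to 0.15), and Prpf4 of the U4/U6 particle had one of -0.14 (95% interval -0.43 to 0.15). The intervals of all 5 genes lay within 1.5-fold.

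The other 8 Prpf genes act at different steps and had a median log2 fold change of -0.03. Prpf4b encodes a kinase that phosphorylates tri-snRNP proteins. It had 26.4, 23.4, 23.4 and 22.8 CPM in vehicle-treated mice and 19.3, 16.7, 21.6 and 15.5 CPM in ISOGK-treated mice, all of which were lower. Its log2 fold change was -0.40 (SE 0.12, edgeR's adjusted p = 0.0605), and it passed the threshold with DESeq2, with library size alone and without ISOGK-treated mouse 3. When GC content and transcript length were corrected for, the log2 fold change of Prpf4b was -0.19. Prpf19 encodes the ubiquitin ligase of the complex that activates the spliceosome. Its 4 ISOGK-treated mice (72.7 to 92.2 CPM) lay above its vehicle-treated mice (66.7 to 72.6 CPM), with a log2 fold change of 0.17 (edgeR's adjusted p = 0.304).

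The LSm ring of U6 is formed by Lsm2 to Lsm8, and a ring with Lsm1 in place of Lsm8 acts in the decay of mRNA in the cytoplasm. The 8 genes had a median log2 fold change of 0.14, with 6 above 0, and 0 passed the test. Lsm1 had 5.37, 6.49, 6.78 and 6.79 CPM in vehicle-treated mice and 8.49, 10.1, 6.33 and 11.8 CPM in ISOGK-treated mice. ISOGK-treated mouse 3 was within the range of the vehicle group and the other 3 were above it. The log2 fold change of Lsm1 was 0.53 (SE 0.18, edgeR's adjusted p = 0.0974), and without that mouse it was called. Lsm3 and Lsm7 had log2 fold changes of 0.43 and 0.28 (edgeR's adjusted p = 0.3004 and 0.460) on only 35 to 81 and 40 to 72 counts per library. The other LSm genes include Lsm10 and Lsm11, parts of the U7 snRNP that processes histone mRNA. Those 5 genes had log2 fold changes from -0.02 to 0.10, and the intervals of all 5 lay within 1.5-fold.

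The SR proteins were the group in which members differed most from each other. Of 10 tested genes, 6 reached an unadjusted p under 0.05, 3 with estimates above 0 and 3 below, so that the median log2 fold change was 0.02 while single genes ran from -0.67 to 0.55. Srsf12 was at 0 counts in 6 libraries and 1 count in 2, and was not tested. The set of SR genes beyond the 3 with the smallest p was named after the values were seen.

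Srsf2 (chromosome 11, 116849901 to 116853094 in GRCm38, minus strand) encodes an SR protein that binds exonic enhancers and is a familiar marker of nuclear speckles. It had 30.2, 30.2, 35.2 and 36.4 CPM in vehicle-treated mice 1 to 4 and 43.2, 44.9, 37.7 and 54.6 CPM in ISOGK-treated mice 1 to 4. All ISOGK-treated mice were above all vehicle-treated mice, with the smallest gap at ISOGK-treated mouse 3. The mean level was 33.0 ± 3.30 CPM with vehicle and 45.1 ± 7.06 CPM with ISOGK (SD, n = 4 per group). Srsf2 thus rose 1.37-fold, with a log2 fold change of 0.45 (SE 0.12, 95% interval 0.19 to 0.71, edgeR's adjusted p = 0.0423). The call was near its threshold: it was kept in 10 of 18 alternatives, and was lost with library size alone and whenever a mouse other than ISOGK-treated mouse 3 was left out, with log2 fold changes from 0.31 to 0.52 and adjusted p-values from 0.0126 to 0.132 over all of them. Its exons overlap those of Mettl23 (460 bases) and Mfsd11 (288 bases) on the opposite strand, which had log2 fold changes of 0.28 and 0.18 (edgeR's adjusted p = 0.256 and 0.563). Whether the counting used strand is not given in the sources used here.

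Srsf3 and Srsf11 had estimates of similar size with overlapping groups. Srsf3, a small SR protein that also acts in mRNA export, had 36.6, 19.6, 37.1 and 34.4 CPM in vehicle-treated and 36.4, 50.8, 43.7 and 56.2 CPM in ISOGK-treated mice. Vehicle-treated mouse 2 stood far below the other vehicle-treated mice, and ISOGK-treated mouse 1 was within the range of the vehicle group. The log2 fold change of Srsf3 was 0.55 (SE 0.20, edgeR's adjusted p = 0.130), and 49.5% of its transcript has near-identical copies. Srsf11 had 26.1, 27.5, 28.5 and 21.1 CPM with vehicle and 24.7, 35.7, 38.6 and 36.1 CPM with ISOGK. Only ISOGK-treated mouse 1 was in the range of the vehicle group, and without it Srsf11 was called. Its log2 fold change was 0.39 (SE 0.14, edgeR's adjusted p = 0.123).

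On the lower side, Srsf5 was the most abundant member per length of transcript and the most uneven among ISOGK-treated mice. Srsf5, also called HRS, is an SR protein first found as an insulin-induced gene in liver cells. It had 85.4, 105, 87.2 and 81.3 CPM in vehicle-treated mice and 79.5, 81.0, 28.2 and 35.8 CPM in ISOGK-treated mice. ISOGK-treated mice 1 and 2 were just under the lowest vehicle-treated mouse, while mice 3 and 4 had less than any other library by a wide margin. The log2 fold change of -0.67 had an SE of 0.34 and a 95% interval from -1.47 to 0.12 (edgeR's adjusted p = 0.280), and 51.7% of the transcript has near-identical copies. In all 18 alternatives the estimate was below 0 and the gene was not called, with log2 fold changes from -0.90 to -0.46.

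Srsf6, Srsf10 and Srsf4 had smaller and more even differences. Srsf6 (SRp55) had 61.7 to 73.1 CPM with vehicle and 56.7, 61.9, 48.1 and 50.8 CPM with ISOGK, and the groups met at 61.7 and 61.9 CPM. Its log2 fold change was -0.32 (SE 0.10, edgeR's adjusted p = 0.0738), and it was called by DESeq2 and with library size alone. Srsf10, which acts as a repressor when dephosphorylated by heat shock, had 22.3 to 25.7 CPM with vehicle and 17.9, 18.7, 23.1 and 18.8 CPM with ISOGK, a difference of -0.29 on the log2 scale (edgeR's adjusted p = 0.119). ISOGK-treated mouse 3 was in the range of the vehicle group, and the gene was called without it, while the correction for GC content and length gave -0.16. Srsf4 (SRp75) had 27.8 to 30.0 CPM with vehicle, 30.2 CPM in ISOGK-treated mouse 1 and at most 23.3 CPM in the other ISOGK-treated mice, a difference of -0.27 on the log2 scale (edgeR's adjusted p = 0.172), and was called without ISOGK-treated mouse 1. Srsf1, Srsf7 and Srsf9 had log2 fold changes of 0.00, 0.03 and 0.10, or 0.18, 0.13 and -0.05 after the same correction.

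**Figure D2:**
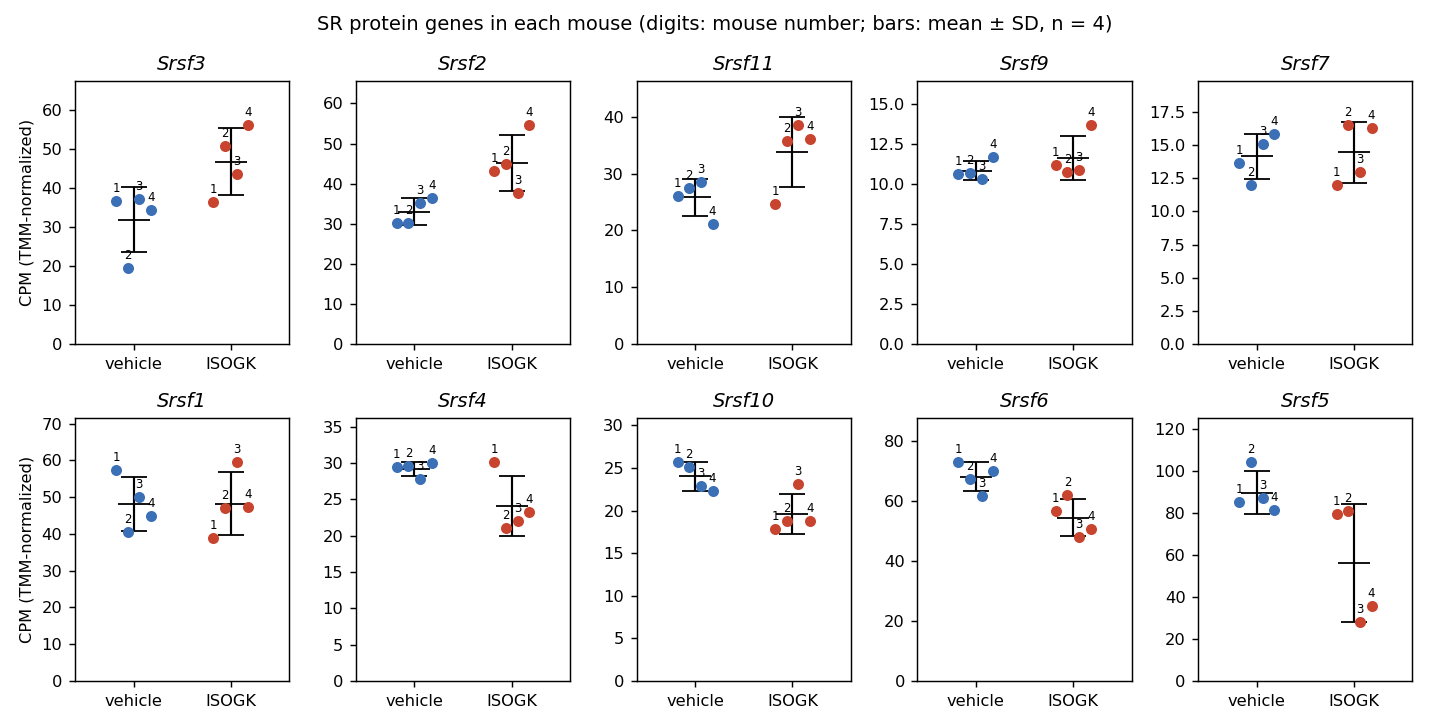
CPM of the 10 tested SR protein genes (y axis, each panel from 0) in vehicle-treated (blue) and ISOGK-treated (red) mice, ordered by log2 fold change. Points are mice with their number, and bars are the mean ± SD of 4 mice. All ISOGK-treated mice lie above the vehicle group for Srsf2, and for Srsf5 ISOGK-treated mice 3 and 4 lie at 28.2 and 35.8 CPM.

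The 250 bases before the RefSeq start of Srsf2, the gene that passed the test, are shown with those of Srsf5 and Srsf6, the SR genes with the lowest estimates (build GRCm38.p6, each 5′ to 3′ on the strand of the gene). Srsf2 lies at chr11:116853095-116853344 on the minus strand, Srsf5 at chr12:80945249-80945498 on the plus strand and Srsf6 at chr2:162931258-162931507 on the plus strand. Capitals mark matches to the motifs searched. The window of Srsf2 shares bases with an exon of an Mfsd11 transcript on the opposite strand. It also lies within the span of Mettl23 on that strand. The window of Srsf5 shares bases with the antisense gene Gm20337.
Srsf2: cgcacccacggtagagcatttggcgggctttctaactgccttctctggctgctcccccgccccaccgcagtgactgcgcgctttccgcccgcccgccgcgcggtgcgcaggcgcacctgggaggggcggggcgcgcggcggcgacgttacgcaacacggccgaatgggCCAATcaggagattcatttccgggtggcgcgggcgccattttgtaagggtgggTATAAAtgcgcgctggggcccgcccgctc
Srsf5: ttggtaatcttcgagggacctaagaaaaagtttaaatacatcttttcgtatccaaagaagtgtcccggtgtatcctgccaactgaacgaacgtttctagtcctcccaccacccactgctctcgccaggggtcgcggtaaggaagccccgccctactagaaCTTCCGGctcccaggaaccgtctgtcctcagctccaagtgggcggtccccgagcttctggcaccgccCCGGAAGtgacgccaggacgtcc
Srsf6: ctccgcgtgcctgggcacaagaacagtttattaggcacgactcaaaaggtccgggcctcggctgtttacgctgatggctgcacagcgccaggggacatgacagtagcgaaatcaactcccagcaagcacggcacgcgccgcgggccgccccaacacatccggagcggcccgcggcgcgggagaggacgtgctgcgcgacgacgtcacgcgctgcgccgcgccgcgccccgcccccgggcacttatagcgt

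Both strands were searched for 7 motifs, which do not contain one another. Srsf2 had a TATA box (TATAAA) 29 to 24 bases before its start and a CCAAT box (CCAAT) 82 to 78 bases before it. Among 51 members with a RefSeq window, TATAAA was found in 4 (7.84%), namely Srsf2, Srsf3, Sf3b3 and Snrpa, against 6.66% of 9814 tested genes with a window. CCAAT was found in 37.3% of members and 36.6% of all. Srsf5 had matches to the ETS motif (CCGGAAG) 90 to 84 and 23 to 17 bases before its start, and this motif was found in 16 members (31.4%) against 13.8% of all. The NRF1 core (GCATGCGC) was found in 9.80% of members and 4.46% of all. The shares were 3.92% and 2.55% for TGACGTCA, the CRE, 5.88% and 8.48% for CACGTG, the E-box, and 5.88% and 4.97% for GAANNTTC, of the heat shock element. Srsf6 had no match to any of the 7. The ETS letters were present before genes with estimates above 0, such as Srsf11, and below 0, such as Prpf4b, and a match is a description of letters only.

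Levels of different genes were compared per kb of transcript. Srsf5 was highest, with a mean level of 57.1 CPM per kb in vehicle-treated and 35.8 in ISOGK-treated mice. Sf3b2 and Prpf8 followed with 30.5 CPM per kb each in vehicle-treated mice, and with 33.7 and 29.0 in ISOGK-treated mice. U2af1 had 22.2 and 26.3 CPM per kb, while Sf3b1 had 14.0 in both groups. Lsm11 was lowest among tested genes, with 0.391 CPM per kb in vehicle-treated and 0.421 in ISOGK-treated mice. The length used is that of the longest coding transcript, so a level is too low where liver uses a shorter one.

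**Figure D3:**
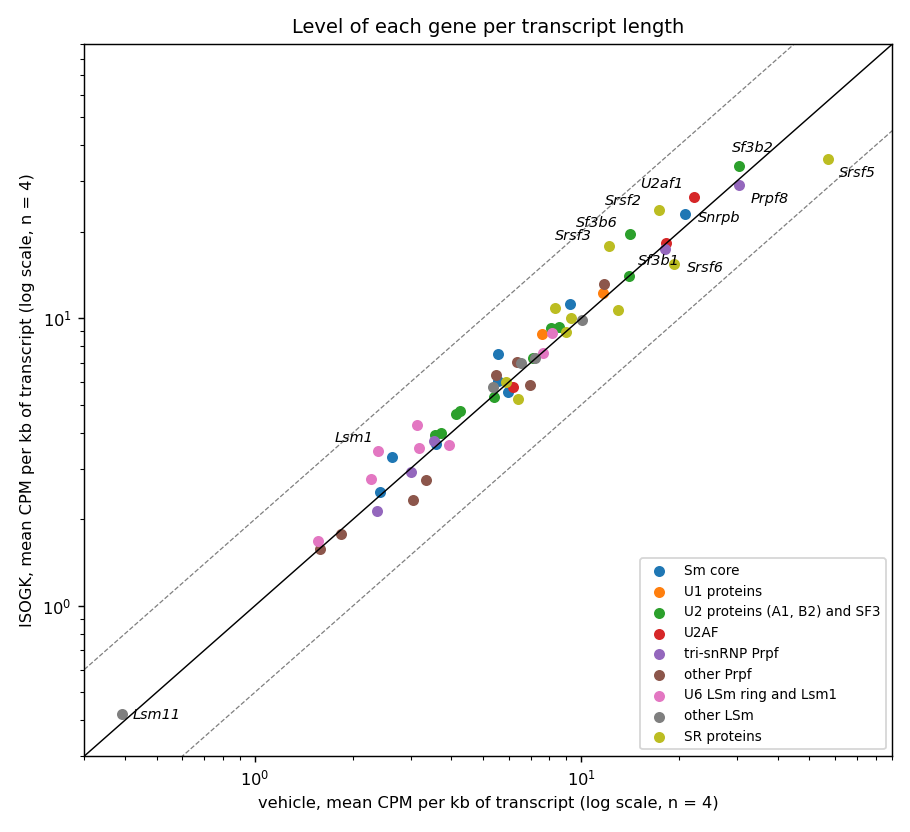
Mean CPM per kb of transcript in 4 vehicle-treated mice (x axis) and 4 ISOGK-treated mice (y axis), both on log scales, with colours for the role of each of the 60 tested genes. The solid line marks equal levels and the dashed lines 2-fold differences. All points lie between the dashed lines, from Lsm11 at 0.391 to Srsf5 at 57.1 CPM per kb in vehicle-treated mice.

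The median of the members above 0 was carried mostly by 1 mouse. On log2(CPM + 0.5) relative to the mean of the vehicle group, the median over the 60 tested members was 0.22 in ISOGK-treated mouse 4 and between -0.04 and 0.06 in each of the other 7 mice. Of the 60 members 27 (45.0%) had their highest value in ISOGK-treated mouse 4, where 23.3% of all tested genes had theirs. Without this mouse the median log2 fold change of the members was 0.02. In this mouse short and long transcripts parted for all genes. The median was 0.42 over all tested genes with transcripts under 1 kb and -0.15 over those of at least 4 kb. For members of the same classes it was 0.22 and -0.07. ISOGK-treated mice 1 and 2 had a smaller split over all tested genes, with 0.20 and -0.08 and with 0.17 and -0.08. ISOGK-treated mouse 3 did not have it, at -0.03 and 0.03.

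Length was related to the comparison in the same way. The median log2 fold change over all tested genes was 0.22 for transcripts under 1 kb and -0.07 for those of at least 4 kb. The members had 0.13 (10 genes) and -0.01 (11 genes) in these classes, 0.18 (15 genes) against 0.08 from 1 to 2 kb, and 0.02 (24 genes) against 0.01 from 2 to 4 kb. When GC content and transcript length were corrected for, the median of the members was 0.06. The same correction gave log2 fold changes of 0.21 for Snrpg, 0.07 for Snrpc, 0.27 for Lsm3 and 0.12 for Lsm7, and of -0.03, -0.10 and -0.07 for Prpf8, Prpf6 and Prpf4. With library size alone, which moved the median of all genes to -0.13, that of the members was -0.04, that of the SR genes -0.12 and that of the tri-snRNP genes -0.19. The part of transcript length in the differences between roles was not tested.

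**Figure D4:**
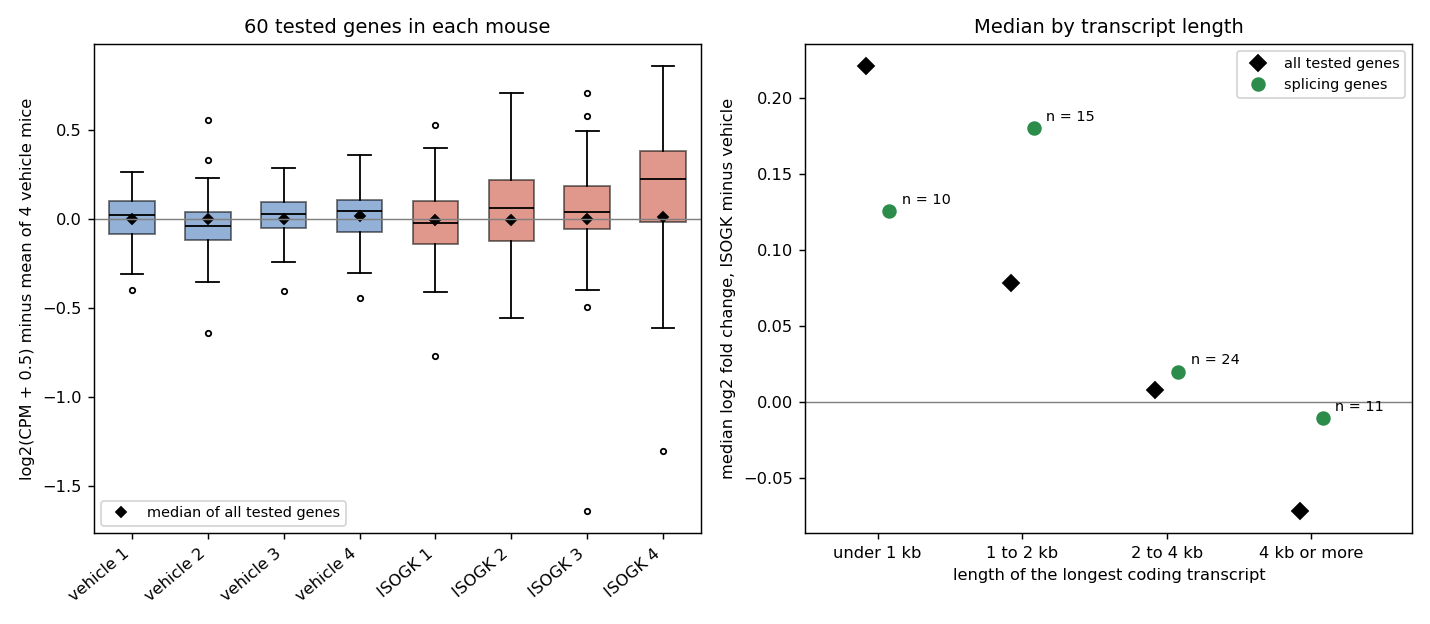
Left, log2(CPM + 0.5) minus the mean of the vehicle group (y axis) for the 60 tested splicing genes in each mouse (x axis), as boxes of the quartiles with whiskers to 1.5 times the interquartile range, with the median of all tested genes as a diamond. Right, median log2 fold change by transcript length for splicing genes (circles, with their number) and all tested genes (diamonds). The median is 0.22 in ISOGK-treated mouse 4, and all tested genes fall from the shortest to the longest class, while splicing genes are highest from 1 to 2 kb.

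Other genes of the splicing pathway were taken from 8 lists compiled by hand. Of 24 tested snRNP proteins that the naming rule leaves out, 1 was higher (4.17%, against 4.11% of all tested genes), Snrnp27, a tri-snRNP protein. It had 9.28, 9.10, 9.15 and 9.60 CPM in vehicle-treated and 11.8, 12.7, 11.9 and 15.8 CPM in ISOGK-treated mice, with no overlap. Its log2 fold change was 0.49 (SE 0.12, edgeR's adjusted p = 0.0333), and the call was kept in 10 of 18 alternatives (adjusted p from 0.0073 to 0.102). Of the 27 tested factors of the NTC and the catalytic steps, 0 passed the test, with a median log2 fold change of 0.00 (an unadjusted p under 0.05 in 2). Of 27 SR-related proteins and splicing kinases 0 passed as well, with 20 below 0 and a median of -0.05. Of all 12307 tested genes 6134 were below 0. An unadjusted p under 0.05 was reached by 7 of the 27 (25.9%), against 24.2% of all tested genes. Some of the 27 have long transcripts, such as Srrm2 (8864 bases) and Son (8731 bases), and the part of length was not tested. The minor spliceosome, with 10 genes, had 0 past the test, 0 with an unadjusted p under 0.05 and a median of 0.13. DESeq2 called 0 genes of the NTC and minor spliceosome lists as well, but 1 higher and 2 lower on the list of SR-related proteins and kinases, where limma-voom called 0. On the list of snRNP proteins DESeq2 called 1 higher and 1 lower, and limma-voom 1 higher and 0 lower. For comparison with each list, DESeq2 called 11.7% of all tested genes in either direction and limma-voom 7.02%.

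Among 27 hnRNP proteins, which coat nascent transcripts and often oppose SR proteins, 2 were higher and 0 lower by edgeR and by limma-voom, while DESeq2 called 2 higher and 1 lower. By edgeR the share higher was 7.41%, against 4.11% of all tested genes higher and 3.44% lower. The median log2 fold change of the 27 was -0.03. Hnrnpa1, a repressor of exon inclusion, had 31.1, 33.0, 28.8 and 29.3 CPM in vehicle-treated and 42.6, 46.0, 49.9 and 40.8 CPM in ISOGK-treated mice. The groups were well apart, and the log2 fold change of 0.55 (SE 0.09, edgeR's adjusted p = 0.0052) passed in all 18 alternatives. Hnrnpdl rose by 0.44 on the log2 scale (SE of 0.12 and edgeR's adjusted p = 0.0421), with overlapping groups, and was called in 11 of 18 alternatives.

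The largest differences in these lists were in RNA-binding regulators, of which 3 of 19 tested were higher and 0 lower. The share higher was 15.8%, against 4.11% of all tested genes higher and 3.44% lower. Rbm3, an RNA-binding protein known for its induction by cold, had 19.6, 37.0, 20.3 and 22.1 CPM in vehicle-treated and 70.9, 81.1, 49.5 and 95.04 CPM in ISOGK-treated mice. Every ISOGK-treated mouse was above every vehicle-treated mouse, with a log2 fold change of 1.58 (SE 0.25, edgeR's adjusted p = 0.0083) that passed in all 18 alternatives. Cirbp, the other cold-inducible RNA-binding protein, had 2.21, 3.96, 2.57 and 3.93 CPM with vehicle and 7.99, 10.8, 4.81 and 6.497 CPM with ISOGK, a difference of 1.24 on the log2 scale (SE 0.26, edgeR's adjusted p = 0.0175), and the call was lost in 1 of 18 alternatives.

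Of 21 genes of the exon junction complex and nonsense-mediated decay, 1 was higher by edgeR, against 1 higher and 1 lower by DESeq2 and 0 by limma-voom. By edgeR this was 4.76%, against 4.11% of all tested genes. The gene was Rbm8a, the exon junction protein Y14, with a log2 fold change of 0.40 (edgeR's adjusted p = 0.0494), called in 6 of 18 alternatives. Of 16 genes of the SMN complex, which loads Sm proteins onto snRNAs, 1 was lower (6.25%, against 3.44% of all tested genes). Gemin4 had 8.68, 9.49, 10.4 and 11.1 CPM in vehicle-treated and 7.80, 6.49, 5.32 and 7.65 CPM in ISOGK-treated mice, a difference of -0.54 on the log2 scale (SE 0.15, edgeR's adjusted p = 0.0465), called in 11 of 18 alternatives. Across the members and these 8 lists, of which the snRNP proteins and the minor spliceosome share 3 genes, 9 of 228 tested genes passed edgeR's test. Of these 8, Srsf2 among them, were higher (3.51%, against 4.11% of all tested genes) and 1 was lower (0.439%, against 3.44%).

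**Figure D5:**
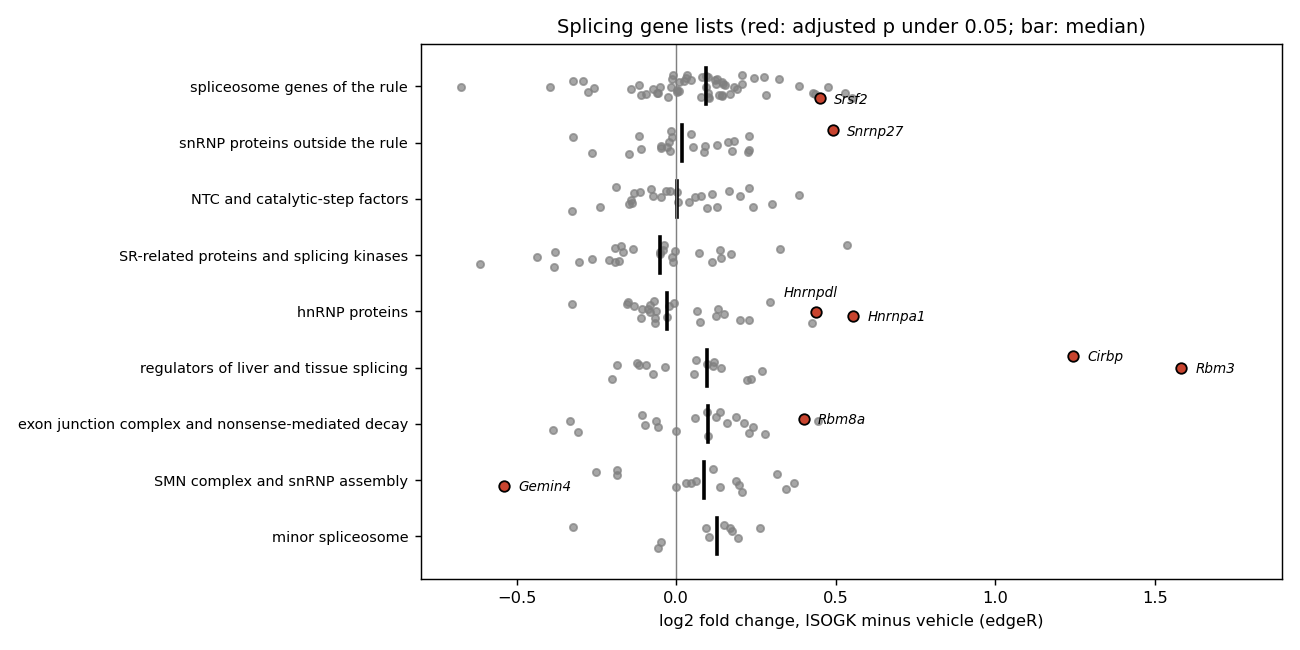
Log2 fold change of ISOGK over vehicle (x axis) for the spliceosome genes of the naming rule and for 8 other lists of splicing genes (y axis). Each point is a gene, red points have an adjusted p under 0.05, and black bars are medians. Rbm3 and Cirbp lie at 1.58 and 1.24, and the other called genes shown lie between -0.54 and 0.55.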

How the data were processed

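Liver RNA of 8 mice was sequenced from single ends, and HISAT2 was used by the authors for alignment and StringTie for the counting of reads. The values as deposited are unnormalized whole-number counts for 16540 gene symbols. The submitters' processing notes name the build mm10, while the annotation release and the use of strand are not given in the sources used here. Groups were taken from the labels, and the columns named DMSO were read as the vehicle group. That libraries come from separate mice rests on the labels, and p-values measure only the spread between these samples. Taken alone, counts without molecular identifiers give precision for counting error only, while the SEs and intervals also include the spread between samples.

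Genes were filtered with filterByExpr (minimum count of 10, minimum total of 15), and 12307 remained. After TMM scaling, the groups were compared in edgeR 4.0.16 by its quasi-likelihood test (robust, no block) in R 4.3.3, with p-values adjusted over all tested genes by the Benjamini-Hochberg method, and 95% intervals were taken from the fit. Alternatives were DESeq2 1.42.0, limma-voom (limma 3.58.1), other size factors, other filters, the test without the robust option, offsets smoothed on GC content and length, the replicate number as a block, and leaving out each mouse. The common biological coefficient of variation was 0.164. The tests were also run on simulated counts. These were drawn with the common coefficient for every gene and both groups, so they do not cover differences in spread between genes or groups.

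Members and lists were chosen with earlier results of these data known, so lists are described by counts and medians. Named were all members past the threshold, the 3 members of each role with the smallest p, members that failed the filter, and up to 3 called genes of each other list. The remaining SR genes and Sf3b1, and genes that stand apart in 1 mouse, were added after their values were seen. Some genes that this rule names are not reported here. GENCODE M21 (GRCm38) gave coordinates, lengths and overlaps, and RefSeq gave the windows of 51 members. Copies are stretches of annotated transcripts of other genes at an identity of at least 97% over at least 50 bases. Copies without an annotation were not searched for.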

Additional observations from a re-analysis of the deposited data

Results flagged for a closer look

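In 8 genes 1 mouse stood apart from the other 3 of its group by a gap that, as a share of the range of the group, exceeded the critical value of Dixon's test. Of 120 groups of values examined 8 were past this limit, and 6 are expected by chance. In U2af1l4, ISOGK-treated mouse 2 had 4.22 CPM against 5.40 to 5.43 CPM in the others, a gap of 0.973. In Sf3b3, ISOGK-treated mouse 1 had 35.6 CPM against 43.7 to 44.4 CPM (0.917), and in Sf3b1 mouse 3 had 97.5 CPM against 82.5 to 84.0 CPM (0.903). In Srsf9, ISOGK-treated mouse 4 had 13.7 CPM against 10.8 to 11.2 CPM (0.857). Vehicle-treated mouse 4, the mouse with skeletal muscle markers, was apart in Lsm4 (8.26 CPM against 7.28 to 7.36 CPM, 0.923) and in Lsm8 (1.97 CPM against 2.71 to 2.81 CPM, 0.883). In Srsf3, vehicle-treated mouse 2 had 19.6 CPM against 34.4 to 37.1 CPM (0.845), and in Prpf4b, vehicle-treated mouse 1 had 26.4 CPM against 22.8 to 23.4 CPM (0.8291). Lsm4 and Lsm8 were named after their values were seen.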

How the results depend on the processing

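Of 18 alternatives, DESeq2 called 2 members higher and 2 lower, and library size alone called 0 higher and 2 lower. Of all tested genes, DESeq2 called 11.7% and library size alone 8.66%. With each mouse left out, 0 to 3 members were higher and 0 to 2 lower: 0 were called without any of the vehicle-treated mice or without ISOGK-treated mouse 2 or 4, 2 without mouse 1 and 5 without mouse 3. Of all tested genes, 3.05% to 5.45% were called in the settings with 0 members. The share was 7.93% without ISOGK-treated mouse 1 and 9.92% without mouse 3, against 7.55% in the main fit. All other alternatives called Srsf2 alone, and 5.31% to 8.92% of all tested genes. With library size alone the median log2 fold change was -0.0018 for the Sm core, -0.0075 for U2 and SF3, -0.0018 for the LSm ring and -0.115 for SR genes. The cause of these differences was not tested.

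Genes near 0 changed sign, none past the threshold, and the lists below cover only genes named above. Other members above 0 also fell below 0 with library size alone, such as Lsm14b (-0.123), Snrpd2 (-0.115), Sf3a3 (-0.103), Snrpn (-0.089) and Prpf31 (-0.053). Others stayed above 0, such as Prpf19 (0.031) and Sf3b2 (0.014). Library size alone also lowered the median of all tested genes, as given above. With library size alone the log2 fold change was -0.062 for Snrpa, -0.122 for U2af2, -0.035 for Lsm12, -0.041 for Lsm10, -0.034 for Lsm11, -0.123 for Srsf1, -0.107 for Srsf7, -0.033 for Srsf9 and -0.125 for Sf3b1. Corrected for GC content and length, without and with the replicate block, it was -0.043 and -0.045 for Snrpa, -0.048 and -0.049 for U2af2, -0.068 and -0.054 for Lsm10, and -0.047 and -0.049 for Srsf9. Srsf1 and Sf3b1 were at -0.00044 and -0.0013 with DESeq2, -0.0030 and -0.00043 with limma-voom, -0.00043 and -0.0013 with DESeq2's size factors, -0.0040 and -0.0052 without a filter, and -0.00066 and -0.00040 with the replicate block. With each mouse left out, Snrpa ran from -0.045 to 0.147, U2af2 from -0.022 to 0.053, Lsm10 from -0.029 to 0.206, Lsm11 from -0.0089 to 0.245, Srsf1 from -0.123 to 0.096, Srsf7 from -0.042 to 0.110 and Sf3b1 from -0.065 to 0.034.

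The counts showed no clear pairing of mice by replicate number, though they cannot tell whether same-numbered mice were handled together. Deviations of same-numbered mice from their group means had correlations from -0.014 to 0.085, and 1 of 4 was highest with its own number. The replicate block called 1 member, Srsf2, and 827 genes in all, against 929 without the block, and changed no other call of a member. Counts of 9 to 33 per library limit what can be said of Lsm5.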
